A study of Mus musculus with 59 samples.

Results

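The 9 genes described here mark or maintain long-term haematopoietic stem cells (LT-HSCs), the rare bone marrow cells that rebuild the blood for life. They were chosen by name from what is known of stem cells: Mecom, Hlf, Mllt3 and Hoxb5 (regulators of transcription), Procr, Slamf1 and Cd34 (surface proteins), and Fgd5 and Ctnnal1 (genes used as reporters of stem cells). The choice was made with earlier results of these data known. All 9 were found among the 51810 to 51812 gene rows of each of 10 tables, which together hold 59 RNA-seq libraries. Of the 9, 8 had reads and are called expressed here. Hoxb5 was listed at 0 in every library, which is not read as absence.

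All cells came from the bone marrow of C57BL/6 mice that carried 1 Cre allele (Cre +/-), controls included. Daxx is a chaperone of histone H3.3, and Pu.1 (encoded by Spi1) is a transcription factor of myeloid and B cells. Wild type (WT, Daxx +/+), Daxx-KO (Daxx F/F) and double knockout (DKO, Daxx F/F Pu.1 F/F) cells came from Mx1Cre mice, as did the Pu.1-WT (Pu.1 +/+) and Pu.1-KO (Pu.1 F/F) cells of a separate line. The Mx1 promoter responds to interferon, and Cre was induced with pI:pC, so the controls had also been through that induction. KLS cells (lineage-negative, c-Kit-positive, Sca-1-positive), a mixture with the stem cells among it, were sorted together with granulocyte-monocyte progenitors (GMPs), which are committed myeloid cells, at 3 or 24 weeks post induction (w.p.i.). MPP3 and MPP4 cells, which are multipotent progenitors with a myeloid and a lymphoid bias, were sorted at 3 w.p.i. LT-HSCs came from RosaCreER mice, whose Cre is switched on by tamoxifen in all tissues, 3 days after induction. They comprise WT, Daxx-KO and heterozygous (Daxx +/F) samples. A further set of KLS cells and GMPs (2 WT and 2 Daxx-KO libraries of each) has no time point and no mouse line on its labels and is called untimed here. For RNA-seq of these populations the study describes mice at 3 w.p.i., mice at 24 w.p.i. and irradiated mice transplanted with Mx1Cre bone marrow. By elimination the untimed set would be that of the transplanted mice, so it may differ from the other sets in more than time. The labels do not say that the untimed libraries came from separate animals, although the study describes its genomic replicates as biological. The p-values for these libraries measure the spread between samples, which may be technical.

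Daxx, the targeted gene, was lower in every Daxx-KO, DKO or Daxx-deleted library than in every WT library of the same table. In KLS cells at 3 w.p.i. it was 85.7 ± 15.3 normalized counts (SD, n = 3) in Daxx-KO and 86.0 ± 11.2 (n = 2) in DKO, against 465 ± 41.4 (n = 3) in WT. Spi1, the gene of Pu.1, was higher in DKO KLS cells at 3 w.p.i. than in WT, at 3162 ± 238 against 1888 ± 374 normalized counts, while in GMPs it overlapped, at 3417 ± 606 in DKO against 4112 ± 671 in WT. In the Pu.1 line it overlapped in KLS cells, at 2114 ± 1141 in Pu.1-KO against 2422 ± 483 in Pu.1-WT, and was lower without overlap in Pu.1-KO GMPs, at 2589 and 2707 against 3394 and 3934. The files do not show which part of the gene was deleted, so the Spi1 count is a weak check of the Pu.1 labels, and in DKO KLS cells it goes the other way. Library depth ran from 3045852 to 30136629 reads in genes. The DKO libraries of KLS cells at 3 w.p.i. held far more RNA of mature neutrophils (8 genes, summed level 9761 to 10854 CPM, which are reads scaled to library depth) than WT (37.6 to 1990) or Daxx-KO (68.1 to 423), and 1 WT library of that table was matched to its group only by the control ending of its repeat column. It is called WT 3. The GMP library of the same name, WT c at 3 w.p.i., was placed in WT through that same column.

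Stem cells stay quiescent under the control of a small set of transcription factors. Mecom (Evi1) supports their self-renewal, Hlf keeps them quiescent, and Mllt3 (Af9) helps to sustain the transcription of stem cell genes. On the cell surface, the protein C receptor Procr and the SLAM receptor Slamf1 (CD150) mark LT-HSCs. Cd34, a sialomucin, behaves the other way in the mouse, being low on LT-HSCs and higher on the progenitors that follow them. Fgd5 encodes an exchange factor for a small GTPase and Ctnnal1 encodes α-catulin, a relative of α-catenin. These patterns were the reason for the choice of genes. CD150 was also used to sort the LT-HSCs, MPP3 and MPP4 cells, and CD34 protein to sort the GMPs.

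The regions just upstream of 3 of these genes are shown because Fgd5 and Mllt3 are the only members whose window holds the core of the Pu.1 motif, and Cd34 is the member that was called lower most often, in Pu.1-KO cells too. They are RefSeq promoter windows on mouse GRCm38.p6, written 5′ to 3′ on the strand of the gene, and bases that belong to an exon of the gene were left off. Capitals mark GAGGAA or its reverse complement TTCCTC. The Fgd5 sequence is chr6:91978715-91978877 (plus strand), the Mllt3 sequence is chr4:88033408-88033657 (minus strand) and the Cd34 sequence is chr1:194938571-194938818 (plus strand).
Fgd5: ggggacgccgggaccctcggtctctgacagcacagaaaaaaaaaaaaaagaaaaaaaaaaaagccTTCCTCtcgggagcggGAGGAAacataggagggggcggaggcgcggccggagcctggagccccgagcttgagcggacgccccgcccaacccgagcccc
Mllt3: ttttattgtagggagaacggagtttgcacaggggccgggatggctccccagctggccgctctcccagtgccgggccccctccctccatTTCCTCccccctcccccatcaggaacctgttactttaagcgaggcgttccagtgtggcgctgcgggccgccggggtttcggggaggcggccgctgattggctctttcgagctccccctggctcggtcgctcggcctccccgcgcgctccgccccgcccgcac
Cd34: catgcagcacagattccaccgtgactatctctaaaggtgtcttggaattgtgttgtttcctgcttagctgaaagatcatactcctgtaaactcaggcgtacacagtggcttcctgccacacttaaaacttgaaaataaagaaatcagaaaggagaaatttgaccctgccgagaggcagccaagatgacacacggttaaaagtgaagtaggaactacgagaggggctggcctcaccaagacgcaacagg
GAGGAA was searched on both strands in the 250 bases before each RefSeq start. It was present in 2 of 10 windows of the 8 members that have one (all but Hoxb5), against 23.3% of 32851 windows of all genes. In Fgd5 the matches began 185 and 169 bases before the start, and in Mllt3 at 162 bases before it. The GATA motif AGATAA, found in 9.99% of all windows, was in none of the 10. A match is only a match of letters, and no binding data were used here.

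Hoxb5, a homeobox gene whose reporter marks LT-HSCs, lies at chr11:96303336-96306121 (plus strand, GRCm38). It was listed at 0 in all 59 libraries, LT-HSCs included. Its neighbours Hoxb4 and Hoxb3 were detected in every library, with 7.51 to 330 normalized counts for Hoxb4 and 19.7 to 690 for Hoxb3. Of the 2786 exonic bases of Hoxb5, 100 (3.59%) are shared with an antisense gene, Hoxb5os. How reads in shared bases were counted is not given in the sources used here. Among genes with some shared exonic bases, but under 90%, 9.75% were listed at 0 in all libraries, against 6.73% of genes with no shared base. Also at 0 in all libraries were 4 of the 40 other stem cell genes followed below (Lyl1, Ndn, Gimap1 and Txnip). So was Rag1, of the lymphoid-primed progenitor list. Why these genes were at 0 was not tested. No level and no change are therefore given for Hoxb5.

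The level of the other 8 genes per base of exon differed widely. In WT KLS cells at 3 w.p.i. the median level was highest for Hlf, at 186 RPKM (reads scaled for exonic length and library depth), and Mecom, at 171. Mllt3 followed at 61.3 RPKM, Cd34 at 22.6, Fgd5 at 19.7 and Procr at 13.9. Ctnnal1 and Slamf1 were lowest, at 3.80 and 3.66 RPKM. The ranges of Hlf (153 to 201) and Mecom (104 to 175) overlapped, as did those of Fgd5 with Procr and of Ctnnal1 with Slamf1, while the other neighbours in this order did not overlap. In LT-HSCs the order began with Mecom (136) and Hlf (127), again followed by Mllt3 (49.4).

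To place the genes along the path from stem cell to committed progenitor, their levels in the sorted populations were set side by side in CPM (WT libraries only for KLS cells and GMPs). Genotypes could not be assigned to the columns of LT-HSCs, MPP3 and MPP4, which mix genotypes, and tables were normalized separately, so no test was made across populations.

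Mecom was at 1207, 1692 and 2610 CPM (lowest, median and highest) in 7 LT-HSC libraries and at 806, 1630 and 2178 CPM in 9 WT KLS libraries. It was at 444, 618 and 1380 in 4 MPP3 and at 300, 507 and 642 in 4 MPP4 libraries. In 9 WT GMP libraries it was at 18.9, 47.3 and 88.6 CPM. Each step down to MPP4 overlapped its neighbour, and the step from MPP4 to GMPs was free of overlap. Hlf took the same order, with medians of 846, 777, 523, 286 and 43.1 CPM, and again only the last step was free of overlap. Mllt3 fell along the same order from a median of 592 CPM in LT-HSCs to 73.6 in GMPs, with every neighbouring pair overlapping.

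Among the surface genes, Procr was highest in WT KLS cells and LT-HSCs (medians of 17.4 and 15.4 CPM) and reached at most 0.935 CPM in WT GMPs. Slamf1, which the sort selected for, had a median of 47.5 CPM in LT-HSCs and 14.6 in WT KLS cells. Cd34 had another order: it was highest in MPP4 and MPP3 cells (medians of 315 and 269 CPM) and in WT KLS cells (136, 192 and 224), and none of the 7 LT-HSC libraries (67.8, 73.0 and 84.3) reached the lowest of these. WT GMPs (44.6, 65.7 and 119 CPM) overlapped the LT-HSCs. Ctnnal1 was the only member whose LT-HSC libraries all lay above all WT KLS libraries, at 45.0 to 81.1 against 16.0 to 32.2 CPM. Fgd5 went from a median of 99.8 CPM in LT-HSCs to 1.39 in WT GMPs, with every neighbouring pair overlapping.

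**Figure D1:**
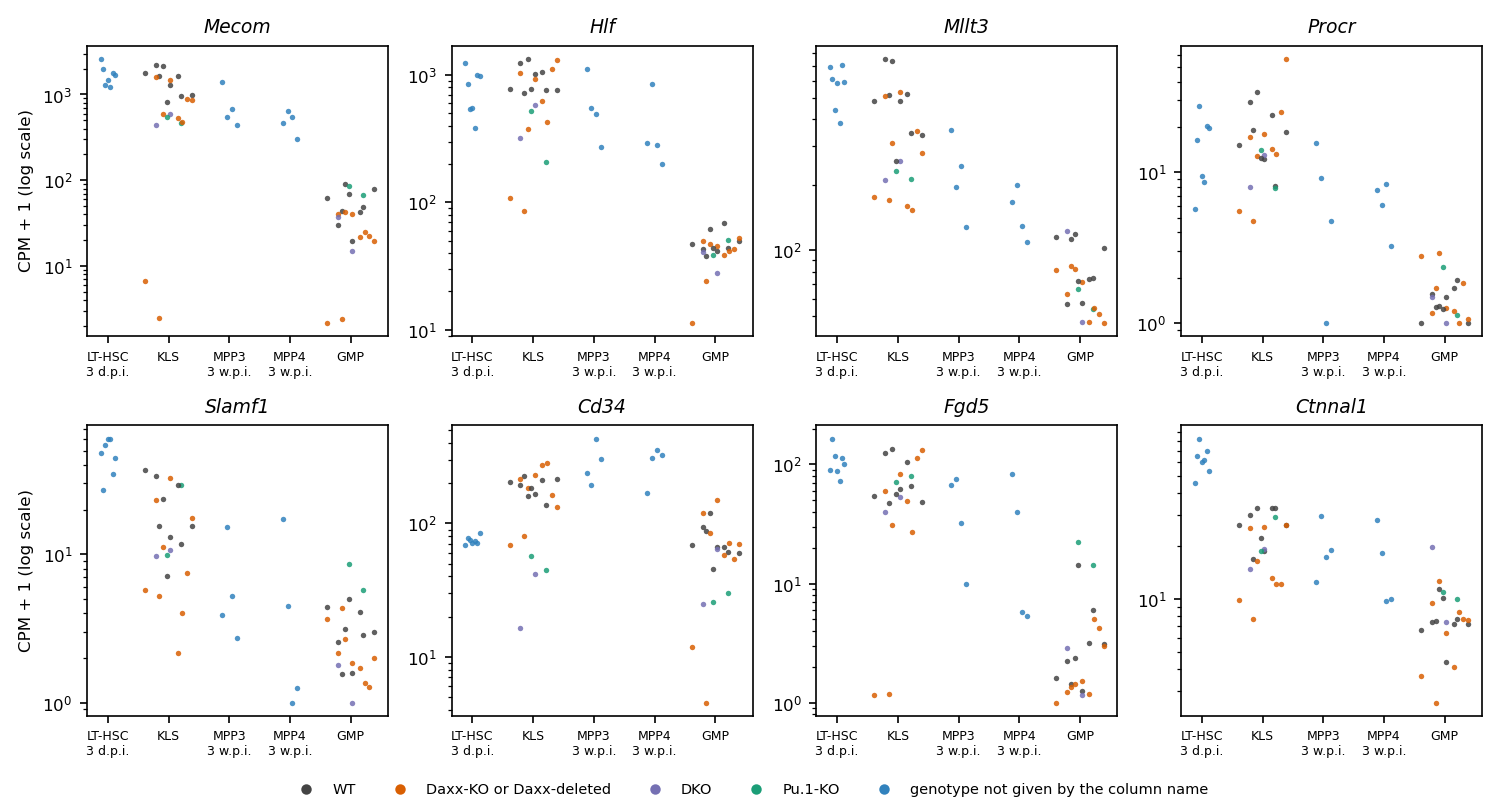
Level of each expressed member (CPM + 1, log scale) in LT-HSCs, KLS cells, MPP3, MPP4 and GMPs. Each point is 1 library. Mecom and Hlf drop between MPP4 and WT GMPs, and Cd34 is lower in LT-HSCs (67.8 to 84.3 CPM) than in WT KLS cells.

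The drop from KLS cells to GMPs could be followed within animals, since column names pair both populations of 18 mice over all genotypes at 3 and 24 w.p.i. Mecom was higher in KLS cells in 18 of 18 animals, with a median ratio of 24.6 and a range of 6.41 to 75.4. Hlf (median ratio 17.9), Procr, Slamf1, Fgd5 (56.7) and Mllt3 (5.12) were also higher in 18 of 18. Procr was at 0 in 3 GMP libraries and Slamf1 in 1, so no ratio is given for them. Ctnnal1 was higher in KLS cells in 17 of 18 animals and Cd34 in 16 of 18. The 2 exceptions for Cd34 were both DKO animals, with ratios of 0.648 and 0.637, whereas Daxx-KO and WT animals of the same tables had ratios from 1.33 to 2.51. CD34 protein is part of the GMP gate in the study's methods, so GMPs of every genotype were selected for it.

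Within the MPP table, MPP4 cells were compared with MPP3 cells of the same 4 animals, in fits that did not use the pairing by animal. With the animal as a block limma called 0 members too. limma called none of the 8 members and 0% of 20137 genes, with 0 members and 107 genes at an unadjusted p under 0.05, and neither edgeR nor DESeq2 called any gene (27 and 132 genes at an unadjusted p under 0.05). Mllt3 was lower in MPP4 in 4 of 4 animals, at 1970, 1961, 1313 and 1116 normalized counts against 3831, 2198, 2517 and 1344 in MPP3 (log2 change -0.58, SE 0.31). Mecom, Hlf, Procr, Slamf1, Fgd5 and Ctnnal1 were lower in 3 of 4 animals and Cd34 in 2 of 4. An MPP3 library of animal b and an MPP4 library of animal a held the endothelial gene Cdh5, at 177 and 247 normalized counts, and also the most Slamf1 of their populations, at 161 and 194, although both populations were sorted as CD150-negative. Without animals a and b, limma again called 0 members. Simulated 2-fold and 4-fold changes in this table were recovered in 0% of cases, so the lack of calls does not show a lack of change. The simulation gave all genes the same dispersion (spread between libraries), so it does not set the size of change that the data could show.

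In untimed KLS cells, all 8 expressed members were lower in Daxx-KO than in WT and Mecom and Fgd5 were lower by the most. limma, run on log2(normalized count + 1) over all genes with a mean of 10 or more, called 8 of 8 lower at an adjusted p under 0.05, where 23.1% of 13508 genes were called, 12.5% lower and 10.6% higher. The median log2 change was -2.07 for the 8, against 0.03 for all genes. Fgd5 passed the filter through the WT libraries alone, and the count of 8 is a description.

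Mecom, the zinc finger factor that stem cells need to persist, had 11791 and 11284 normalized counts in WT and 39.4 and 10 in Daxx-KO. It fell by 9.10 on the log2 scale (SE 0.47, adjusted p = 7.37e-06). Fgd5 was at 353 and 317 in WT and at 1.09 and 1.21 in Daxx-KO. Both Daxx-KO libraries together held 5 reads of Fgd5, against 389 in WT, a ratio of WT to Daxx-KO of 289 after scaling for depth (95% counting interval 123 to 896, exact, which covers counting error only). For Mecom the same counts were 69 and 13405 reads.

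Hlf, which keeps stem cells quiescent, was at 5157 and 4852 in WT and at 738 and 579 in Daxx-KO (log2 change -2.93, SE 0.13, adjusted p = 5.58e-06). Mllt3 was at 3201 and 3474 against 1208 and 1159 (log2 change -1.49, SE 0.10). For these genes the groups were far apart while the libraries of a group were close.

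Procr was at 94.6 and 122 in WT and at 31.7 and 25.8 in Daxx-KO (log2 change -1.88, SE 0.32). Slamf1 was at 239 and 98.2 against 32.8 and 29.1 (log2 change -2.27, SE 0.41), and Ctnnal1 at 169 and 109 against 61.3 and 46.1 (log2 change -1.33, SE 0.30). These 3 genes lost their call without Daxx-KO 1 and also without Daxx-KO 2, which left 5 called. Cd34 was at 1357 and 1521 in WT and at 468 and 542 in Daxx-KO (log2 change -1.51, SE 0.12, adjusted p = 6.57e-05), so the progenitor marker was lower together with the stem cell markers.

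In bulk RNA, fewer cells of a type and less RNA per cell cannot be told apart. In the same Daxx-KO libraries the summed level of 8 myeloid progenitor genes was 1795 to 2346 CPM against 120 to 218 in WT, and that of 8 B and plasma cell genes was 173 to 236 against 1964 to 3141. Megakaryocyte and erythroid genes (8) summed to 12.9 to 18.1 CPM against 45.9 to 69.0. The part of these other cells in the loss was not tested. Ly6a, which encodes the sort antigen Sca-1, rose by 1.94 on the log2 scale, and Kit fell by 1.03.

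**Figure D2:**
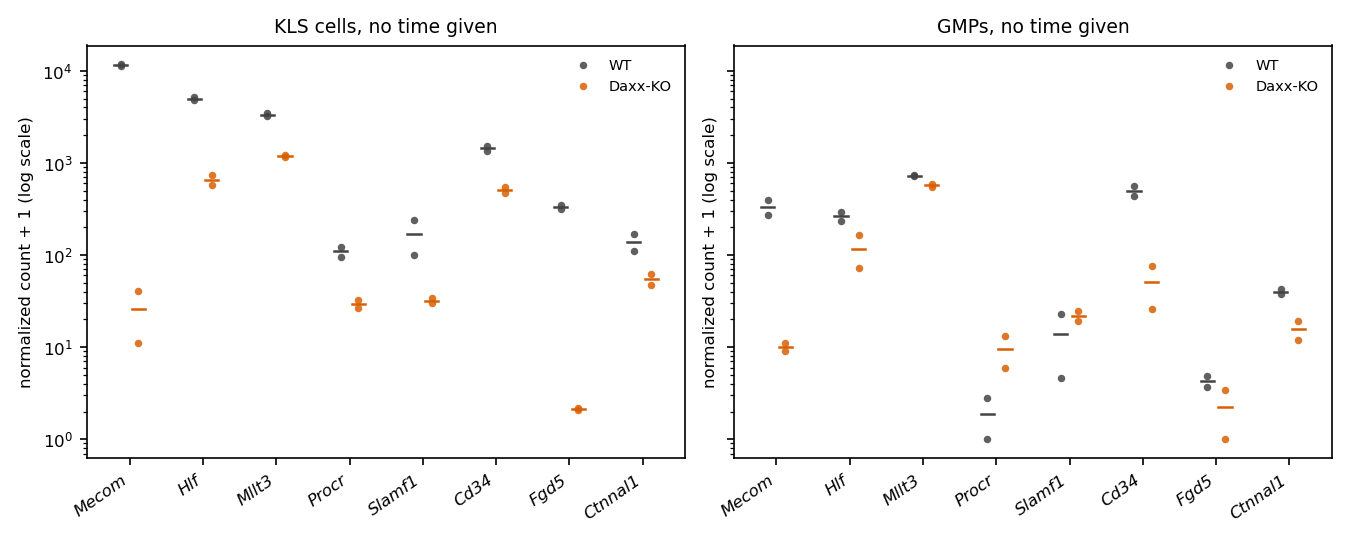
Normalized counts + 1 (log scale) of the 8 expressed members in untimed KLS cells and GMPs, WT and Daxx-KO. Points are libraries (2 per group) and bars are means; in KLS cells every Daxx-KO point lies below every WT point, furthest for Mecom and Fgd5.

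In untimed GMPs, which express most of these genes at a low level, 5 of 6 tested members were lower in Daxx-KO, where limma called 33% of 12744 genes, 16.5% lower and 16.6% higher. The median log2 change was -1.34 for the 6, against -0.01 for all genes. Mecom was at 395 and 272 in WT and at 8.11 and 10.2 in Daxx-KO (log2 change -5.03, SE 0.32, adjusted p = 1.44e-05). It passed the filter through the WT libraries alone (mean of 9.15 in Daxx-KO), and the count of 5 is a description. Cd34 was at 436 and 556 against 75.0 and 24.9 (log2 change -3.47, SE 0.42, adjusted p = 0.000298). The groups of both genes were well apart, with larger spread among the Daxx-KO libraries for Cd34.

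Ctnnal1 (36.4 and 41.6 against 18.2 and 11.0) and Hlf (294 and 235 against 71.0 and 162) were also called, with log2 changes of -1.39 and -1.28. Mllt3 was called for a small change, from 732 and 717 in WT to 554 and 589 in Daxx-KO (log2 change -0.34, SE 0.10, adjusted p = 0.0322). The call of the 5 genes rested in part on the choice of test, since DESeq2 called 3 and leaving out either WT library left 2. Slamf1 was at 22.1 and 3.61 in WT and at 18.2 and 23.7 in Daxx-KO and was not called. Fgd5 (0 to 3.90) and Procr (0 to 12.2) were too low to be tested, and Procr had 2 reads in WT against 18 in Daxx-KO. Neutrophil genes summed to 4954 to 6953 CPM in these Daxx-KO GMPs against 710 to 981 in WT, and their part in the changes was not tested.

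**Figure D3:**
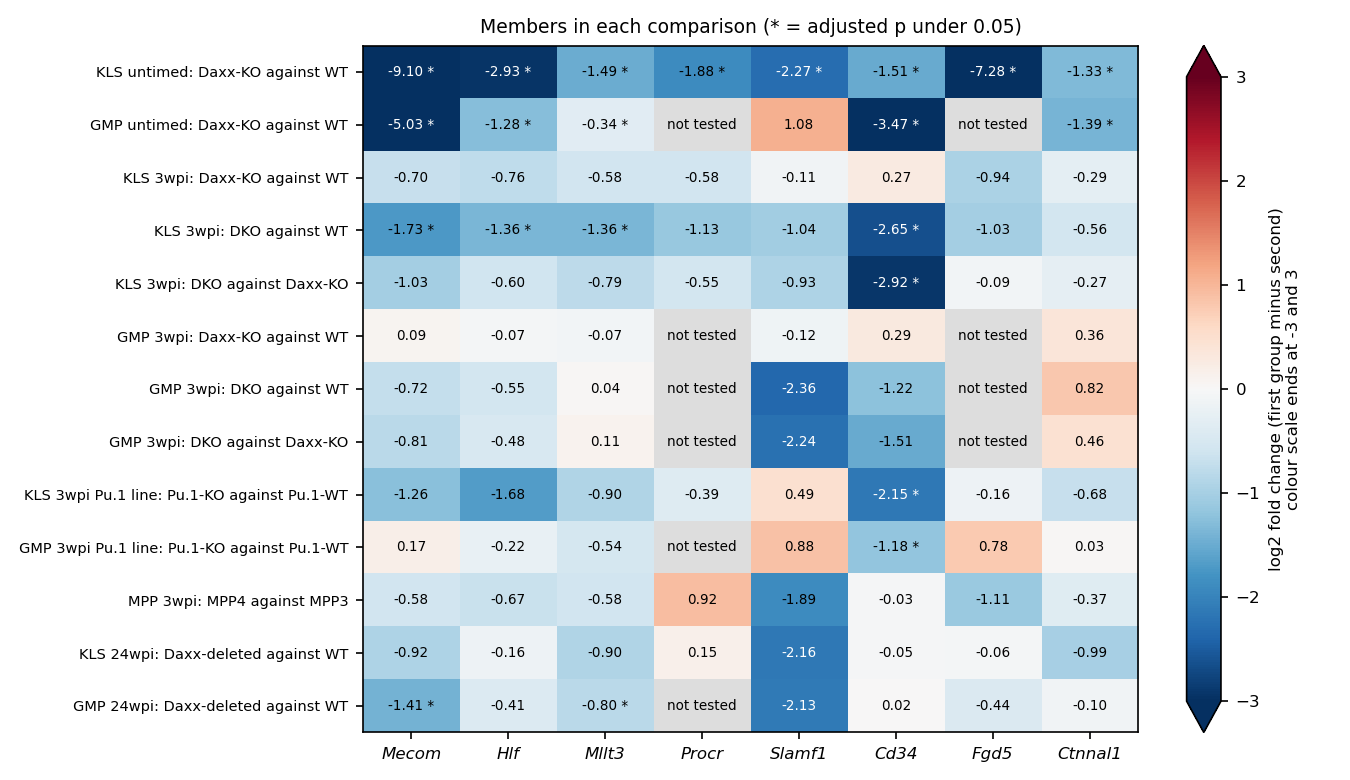
log2 change of each expressed member in the comparisons of genotype and of MPP4 with MPP3 (limma, log2(normalized count + 1)). No member was called higher in any comparison, and the largest falls are those of Mecom and Fgd5 in untimed KLS cells.

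At 3 w.p.i. the loss of Daxx alone went with smaller differences. In KLS cells limma called 0 of 8 members in Daxx-KO against WT, where 0.257% of 15200 genes were called, 0.184% higher and 0.0724% lower. At an unadjusted p under 0.05 were 3 members (Hlf, Fgd5 and Mllt3) and 1777 genes, and edgeR and DESeq2 called 0 members too. The median log2 change of the 8 was -0.58, against -0.00 for all genes, and 7 of 8 were negative. In simulated data of this comparison 11% of 2-fold and 89% of 4-fold changes were called.

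Hlf was at 13221, 5164 and 11912 normalized counts in Daxx-KO and at 16453, 17650 and 13613 in WT (log2 change -0.76, SE 0.33, adjusted p = 0.418), the only member without overlap between the groups. Mecom was at 20644, 8211 and 18954 in Daxx-KO against 28878, 27979 and 17156 in WT (log2 change -0.70, SE 0.34). Daxx-KO 2 was the lowest of its group for all 8 members, and WT 3 was the lowest WT library for 7 of 8.

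Fgd5 was at 755, 413 and 1058 in Daxx-KO against 1644, 1744 and 810 in WT (log2 change -0.94, SE 0.36, adjusted p = 0.381), and Mllt3 at 6544, 4253 and 6783 against 10003, 9698 and 6438 (log2 change -0.58, SE 0.22, adjusted p = 0.381). Cd34 was the one member with a positive value, at 2777, 2528 and 2931 against 2541, 2091 and 2187 (log2 change 0.27, SE 0.26). B and plasma cell genes summed to 4548 to 11535 CPM in Daxx-KO KLS cells against 311 to 9114 in WT, and lymphoid-primed progenitor genes to 1631 to 2742 against 659 to 883. Whether these cells bear on the members was not tested.

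With Pu.1 deleted as well, 4 of 8 members were lower than in WT (limma), where 17.6% of genes were called, 8.4% lower and 9.24% higher. The median log2 change of the 8 was -1.25, against -0.00 for all genes, and all 8 were negative. Cd34 was at 235 and 554 in DKO against 2091 to 2541 in WT (log2 change -2.65, SE 0.29, adjusted p = 0.000589). Mecom was at 6586 and 7965 in DKO against 17156 to 28878 (log2 change -1.73, SE 0.38, adjusted p = 0.0139). Mllt3, at 3157 and 3488 against 6438 to 10003, fell by 1.36 (SE 0.25, adjusted p = 0.00598), and Hlf, at 4816 and 7845 against 13613 to 17650, fell by 1.36 (SE 0.37, adjusted p = 0.0322). All DKO libraries lay below all WT libraries for these 4 genes.

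Slamf1 (133 and 133 in DKO against 159 to 437) and Fgd5 (589 and 714 against 810 to 1744) also lay below WT without overlap but were not called, at an adjusted p of 0.168 and 0.108 (limma). Procr (105 and 165) and Ctnnal1 (209 and 251) overlapped WT (149 to 437 and 235 to 424). The count depended on single libraries: leaving out WT 3 gave 7 calls, leaving out WT 1 or WT 2 gave 2, and leaving out DKO 1 gave 1. The high neutrophil level of the DKO libraries, given above, moved with these changes. Myeloid progenitor genes summed to 6984 to 8071 CPM in DKO against 383 to 3378 in WT, and B and plasma cell genes to 10950 to 15107 against 311 to 9114. Lymphoid-primed progenitor genes were lower, at 498 to 514 against 659 to 883, as were megakaryocyte and erythroid genes (72.4 to 86.8 against 111 to 137). The part of these levels in the changes was not tested.

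Against Daxx-KO, Cd34 alone of the 8 members was called lower in DKO, where 15.4% of genes were called, 7.22% lower and 8.17% higher. It was at 235 and 554 in DKO against 2777, 2528 and 2931 in Daxx-KO (log2 change -2.92, SE 0.29, adjusted p = 0.000312), far apart from the Daxx-KO libraries. Mllt3 missed the threshold (log2 change -0.79, SE 0.25, adjusted p = 0.0570), and Mecom (-1.03, SE 0.38) was at adjusted p = 0.101. Over the 8 members the median was -0.70. Leaving out Daxx-KO 2 raised the count of called members from 1 to 4. This comparison and that of DKO with WT share the same 2 DKO libraries.

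**Figure D4:**
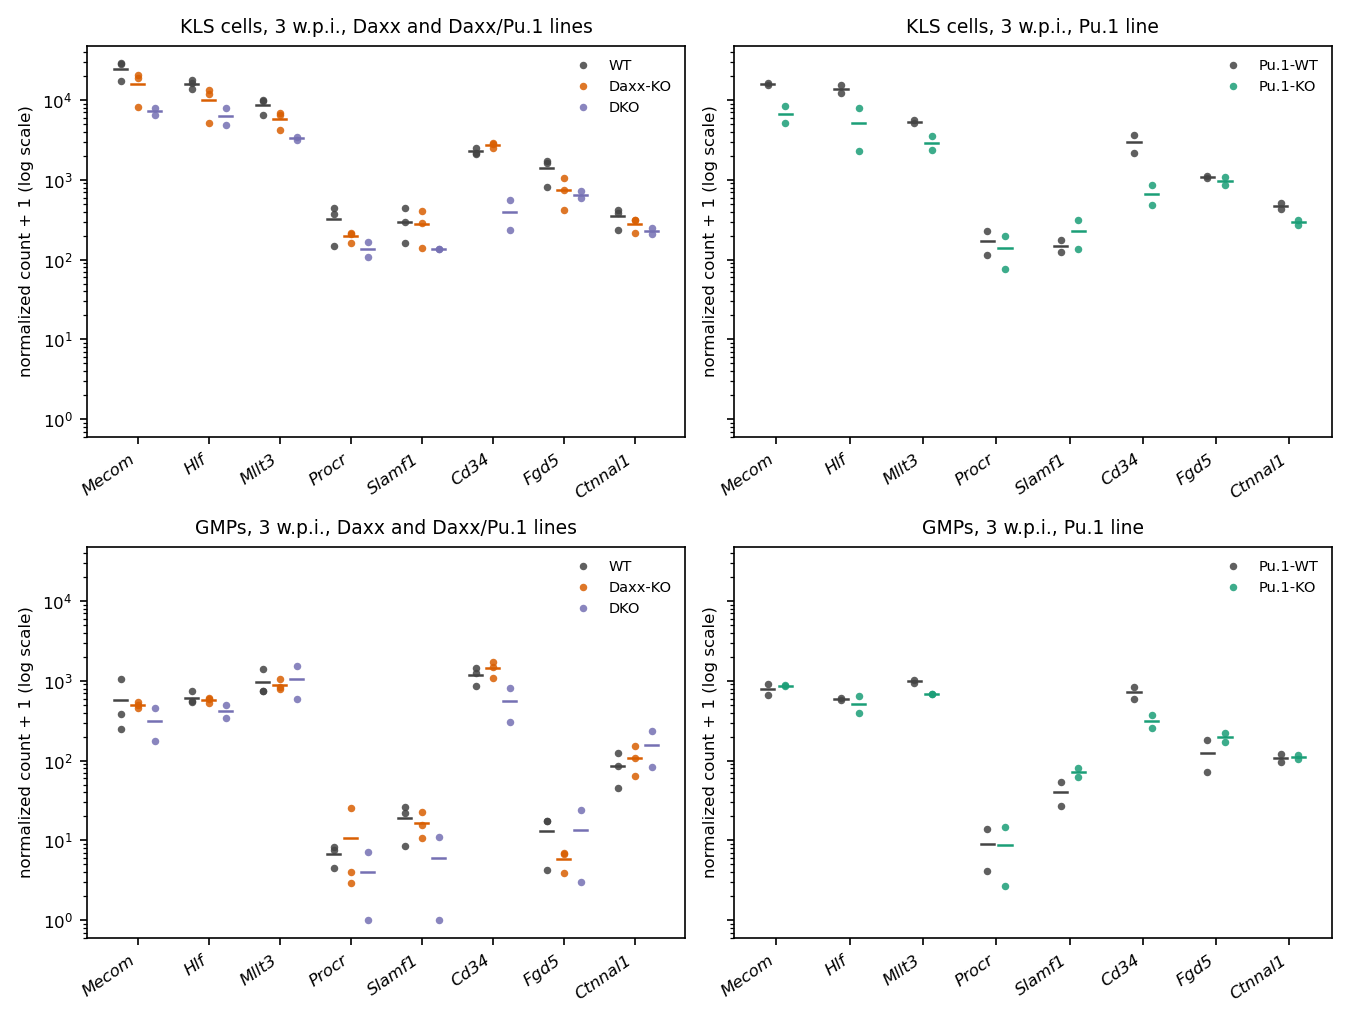
Normalized counts + 1 (log scale) of the 8 expressed members at 3 w.p.i. in KLS cells and in GMPs, by genotype. Points are libraries and bars are means; in KLS cells Cd34 is at 235 and 554 in DKO and at 2091 or more in every WT and Daxx-KO library.

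In GMPs at 3 w.p.i. limma called 0 of 6 tested members in each of the 3 comparisons. For Daxx-KO against WT, 0.0948% of 13714 genes passed (0.0292% lower, 0.0656% higher), with 0 members and 433 genes at an unadjusted p under 0.05. For DKO against WT it was 0.292% (0.211% higher and 0.0802% lower), with 3 members and 961 genes at that level, and for DKO against Daxx-KO 0.0583% (0% lower), with 1 member and 1104 genes. edgeR called 0 members in all 3, and DESeq2 called 0, 0 and 1. Cd34 was at 300 and 816 in DKO, below all WT (1237, 1439 and 871) and all Daxx-KO libraries (1506, 1074 and 1738), with log2 changes of -1.22 (SE 0.40, adjusted p = 0.410) and -1.51 (SE 0.40, adjusted p = 0.236). Mecom was at 383, 1069 and 250 in WT, at 496, 537 and 462 in Daxx-KO and at 455 and 178 in DKO, so all other libraries but 1 lay within the WT range, whose lowest value is WT c; without WT c limma again called 0 members against WT. Leaving out DKO b gave 1 called member in each of the DKO comparisons.

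In the Pu.1 line, the comparison of Pu.1-KO with Pu.1-WT shows these genes where the labels name no deletion of Daxx. Daxx RNA was still lower without overlap in Pu.1-KO KLS cells, at 31.4 and 26.7 CPM against 45.8 and 38.8 in Pu.1-WT. It was also lower in Pu.1-KO GMPs, by less, at 53.8 and 54.5 CPM against 59.2 and 56.4. Whether this difference in Daxx bears on the members was not tested. In KLS cells limma called 1 of 8 members, where 0.81% of 23459 genes were called, 0.341% lower and 0.469% higher. The called gene was Cd34, at 849 and 483 in Pu.1-KO against 3689 and 2192 in Pu.1-WT (log2 change -2.15, SE 0.60, adjusted p = 0.0472). Its call was lost without Pu.1-WT a, Pu.1-WT b or Pu.1-KO b. Mecom (8405 and 5103 against 16174 and 15259), Hlf (7994 and 2302 against 15472 and 12264), Mllt3 (3494 and 2339 against 5142 and 5558) and Ctnnal1 (273 and 313 against 426 and 516) were lower without overlap and were not called. Slamf1 overlapped, at 136 and 313 against 123 and 174, and so did Procr and Fgd5. In CPM, Mecom, Hlf and Mllt3 were still apart, but Ctnnal1 overlapped, at 17.9 and 28.3 in Pu.1-KO against 21.2 and 32.0. Fgd5 was then higher in Pu.1-KO without overlap, at 70.8 and 78.8 against 55.5 and 65.3 CPM. The share of all genes that lay apart in this way was not counted.

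The scaling of this table moved the centre of all genes: their median log2 change was 0.12 as deposited and 0.27 after TMM rescaling, and that of the 8 members was -0.79 as deposited. Of all called genes 57.9% were higher as deposited and 79.5% after TMM rescaling. The libraries of the Pu.1 line had 24539 to 30291 genes detected, against 17066 to 22416 in the other tables of KLS cells and GMPs. Neutrophil genes summed to 5224 to 7763 CPM in Pu.1-KO KLS cells against 1391 to 2030 in Pu.1-WT, and their part in the change of Cd34 was not tested.

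In GMPs of the Pu.1 line, 1 of 7 tested members was called lower, where limma called 17.6% of 19337 genes, 8.49% lower and 9.15% higher. This was again Cd34, at 258 and 377 in Pu.1-KO against 594 and 842 in Pu.1-WT (log2 change -1.18, SE 0.26, adjusted p = 0.000319), and without either Pu.1-WT library the call was lost. Mllt3 was at 682 and 681 against 951 and 1028 (log2 change -0.54, SE 0.24, adjusted p = 0.102). Mecom (892 and 852 against 905 and 661) overlapped. Taken over the 7 genes the median log2 change was 0.03, against -0.00 for all genes. Neutrophil genes summed to 11906 to 15083 CPM in Pu.1-KO GMPs against 1990 to 2594.

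At 24 w.p.i. each table holds 2 WT libraries and 4 libraries with Daxx deleted, which by the labels are 2 Daxx-KO and 2 DKO samples that the column names do not tell apart. They were compared with WT as 1 group, a comparison chosen after the files had been seen. In KLS cells limma called 0 of 8 members, where 0.807% of 16485 genes were called, 0.497% lower and 0.309% higher. At an unadjusted p under 0.05 were 4 members and 1370 genes, and edgeR and DESeq2 called 0 members. Mecom was at 39097 and 23446 in WT and at 12983, 12156, 20831 and 20164 in Daxx-deleted cells (log2 change -0.92, SE 0.30, adjusted p = 0.333). Mecom and Ctnnal1 (769 and 600 against 300.2, 288, 263 and 598) were below WT without overlap. For the 8 genes the median was -0.53, against -0.02 for all genes. Neutrophil genes summed to 1984 to 3279 CPM in Daxx-deleted KLS cells against 381 to 463 in WT, and megakaryocyte and erythroid genes to 81.1 to 130 against 500.4 to 626, and their part was not tested. In simulated data 10% of 4-fold changes were called here.

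In GMPs at 24 w.p.i., 2 of 7 tested members were lower in Daxx-deleted cells, where 3.63% of 16894 genes were called, 1.4% lower and 2.23% higher. Mecom was at 942 and 1751 in WT and at 491, 541, 484 and 425 in the Daxx-deleted libraries (log2 change -1.41, SE 0.23, adjusted p = 0.00288). Mllt3 was at 1668 and 2280 against 1077, 1221, 1138 and 1048 (log2 change -0.80, SE 0.16, adjusted p = 0.00978). Both calls were lost without WT b. Slamf1 was below WT without overlap, at 71.0 and 44.2 against 16.7, 8.25, 6.41 and 22.7, but was not called (adjusted p = 0.304), and Cd34 overlapped, at 1500 and 1324 against 1347, 1601, 1217 and 1588. For the 7 genes the median was -0.44, against 0.01 for all genes. Neutrophil genes summed to 10977 to 28335 CPM in Daxx-deleted GMPs against 3686 to 4094 in WT, and megakaryocyte and erythroid genes to 25.8 to 58.7 against 241 to 276. Their part was not tested.

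**Figure D5:**
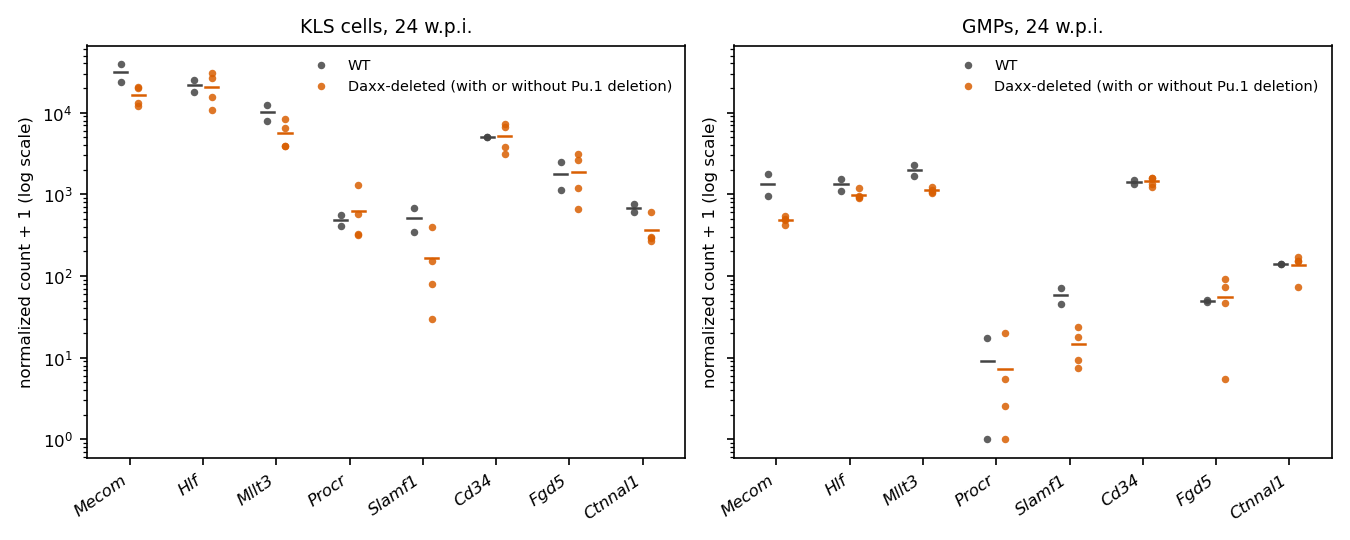
Normalized counts + 1 (log scale) of the 8 expressed members at 24 w.p.i. in KLS cells and in GMPs, WT (2 libraries) and Daxx-deleted (4 libraries, genotype mixed). Points are libraries and bars are means; in GMPs Mecom and Mllt3 of every Daxx-deleted library lie below both WT libraries.

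Over the 13 comparisons together, Cd34 was called lower in 6, Mecom and Mllt3 in 4 each, Hlf in 3, Ctnnal1 in 2, and Procr, Slamf1 and Fgd5 in 1 each, and no member was called higher. Procr was tested in 7 and Fgd5 in 9 of the 13. Several of these comparisons share libraries, so the counts are not independent, and they include Fgd5 in untimed KLS cells and Mecom in untimed GMPs, which passed the filter through WT alone.

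Other genes of the stem cell programme were followed with a list of 40. In untimed KLS cells limma called 17 of 35 tested lower in Daxx-KO (12.5% of all genes) and 2 higher (10.6%), with a median log2 change of -0.67. Those lower included the transcription factors Meis1 (-1.68), Hoxa9 (-2.36) and Tal1 (-1.92) and the ion channel gene Trpc6 (-7.36). The 2 that were higher were Prdm16 (1.14), a relative of Mecom, and Ly6a (1.94). In untimed GMPs the list split, with 9 of 28 lower (16.5% of all genes), such as Hoxa9 (-3.26), and 10 higher (16.6%), such as Prdm16 (6.44) and the cell cycle inhibitor gene Cdkn1c (5.22). Genes of this list could also pass the filter through a single group, so these counts are a description.

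At 3 w.p.i. limma called 12 of 36 lower and 1 higher in DKO KLS cells against WT (8.4% and 9.24% of all genes). Tek, the receptor of angiopoietin, fell by 2.53, and Gata2, a factor that stem cells depend on, by 1.65. Against Daxx-KO, 6 of 36 were lower and 1 higher (7.22% and 8.17% of all genes). In Daxx-KO KLS cells against WT limma and edgeR called 0 of 36 and DESeq2 3, with 12 at an unadjusted p under 0.05 (median log2 change -0.47). In GMPs at 3 w.p.i. limma called 0 of 31 in each comparison, with 2 (Daxx-KO against WT), 7 (DKO against WT) and 8 (DKO against Daxx-KO) at an unadjusted p under 0.05, edgeR called 0 and DESeq2 0, 4 and 6. In MPP4 against MPP3 all 3 tools called 0 of 36, with 4 at that level. In Pu.1-KO KLS cells limma called 1 of 36, Gata2 (-2.21), where 0.341% of all genes were lower, and edgeR and DESeq2 called 5 each. In GMPs of the Pu.1 line 5 of 35 were lower and 2 higher, where 8.49% and 9.15% of all genes were. In GMPs at 24 w.p.i. 8 of 33 were lower (1.4% of all genes) and 0 higher, among them Meis1 (-1.76) and Vwf (-2.97). In KLS cells limma and edgeR called 1 of 36 (Vwf by limma, -3.47, where 0.497% of all genes were lower) and DESeq2 called 5.

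Over the 16 KLS libraries with a genotype, each gene centred on its table mean, the genes most like the mean profile of the 8 members were Zfp532 (Pearson r = 0.987), Eya1 (0.980), Crim1 (0.980), Efcc1 (0.979) and C430002N11Rik (0.978), out of 10456 compared. Each member was set against the mean of the others in the same way. Mllt3 and Mecom were closest (r = 0.92 each), and Slamf1 (0.74) and Cd34 (0.60) were furthest. The libraries share tables and genotypes, and markers of other cells move among them, so these values are a description only.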

How the data were processed

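Bulk RNA-seq libraries of sorted bone marrow cells were analysed. The labels name Trizol and the NuGEN Ovation SoLo kit throughout, but the study's methods use that kit only where mice had been transplanted and a SMARTer kit elsewhere, so which kit made which library is not settled. Tools named in the submitters' processing notes are CASAVA 1.8.4, cutadapt 1.13, STAR 2.5.3 and DESeq2 1.16.1, with mm10 as the genome. The use of strand in counting is not given in the sources used here, so antisense overlap (0.652% of the exonic bases of Mecom with Mecomos and 2.03% of those of Cd34 with Gm16897) leaves those genes slightly uncertain.

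The gene tables were deposited by the authors as normalized counts, a signal made by dividing read counts by 1 size factor per library. Dividing by the step of each library gave whole reads for 100% of values (tolerance 0.01). CPM used the sum of these reads, and RPKM the exonic length of vM21. Each table was normalized separately, so tests were made within tables.

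The main test was limma-trend (limma 3.58.1, R 4.3.3) applied to log2(value + 1) of genes with a mean of 10 or more, all libraries of a table in 1 fit, Benjamini-Hochberg adjustment over all genes, and a call at an adjusted p under 0.05. Fold changes on this scale understate low genes. Alternatives were edgeR 4.0.16 and DESeq2 1.42.0 on the recovered reads, TMM rescaling, a pseudocount of 4, no filter, only the 2 genotypes compared, a replicate block and leaving out each library. The tests were tried on simulated data in which all genes of a comparison had the same dispersion. At 3 w.p.i. 68% of simulated 4-fold and 1% of 2-fold changes were called for DKO against WT in KLS cells, and in untimed KLS cells 100% and 76%. In the Pu.1 line 0% of either were called in KLS cells, although limma called 190 genes in the real data, so these shares are a rough guide.

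Groups came from the labels, through the column names. For the Pu.1 line, 24 w.p.i., WT 3 and WT c they came through the control or treatment endings of repeat columns. LT-HSC and MPP columns show no genotype. For GMPs at 3 w.p.i., the Pu.1 line and both 24 w.p.i. tables a group was found but no replicate number, so letters name their columns. In MPP cells the letters name animals, each of which gave both populations, and deviations of the 2 libraries of an animal correlated at -0.44, -0.04, 0.42 and 0.55. Members, lists and tests were chosen with earlier results of these data known. Named genes were the members, Daxx and Spi1, called genes of the lists where a result turned on them, and the 5 genes most like the members. Deposited ChIP and ATAC tables were not used, and the repeat tables gave only these column endings.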

Additional observations from a re-analysis of the deposited data

Results flagged for a closer look

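Ctnnal1 in KLS cells at 24 w.p.i. had 598 normalized counts in Daxx-deleted library d, while the nearest of the other 3 Daxx-deleted libraries had 300.2. It was the only library that stood far from the rest of its group in 40 groups of 4 to 10 libraries examined over the members, and chance alone marks about 1 in 20 such groups. Procr moved in opposite directions in untimed cells: its mean fell by 79.7 normalized counts from WT to Daxx-KO in KLS cells and was 7.63 higher in Daxx-KO than in WT in GMPs, with no overlap between the groups in either. The difference between the populations was not tested, and Procr rested on 2 WT and 18 Daxx-KO reads in GMPs.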

How the results depend on the processing

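Directions of the called or non-overlapping members were kept under every alternative run. Of 147 counts of called members under alternatives, 122 stayed within 1.5 times the main count, and of 450 values of single members 398 kept their side of the threshold, 15 gained a call and 37 lost one. The count moved to 3 with DESeq2 and to 3 with the replicate block in untimed GMPs (from 5), to 7 with the replicate block in KLS cells for DKO against WT (from 4, adding Procr, Slamf1 and Fgd5, in a fit that drops WT 3, whose column has no number), and with DESeq2 to 3 for DKO against Daxx-KO in KLS cells (from 1) and to 1 in GMPs (from 0). The cause was not tested.

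Leaving out 1 library gave 5 to 8 called members in untimed KLS cells, 2 to 4 in untimed GMPs, 1 to 7 for DKO against WT and 1 to 4 for DKO against Daxx-KO in KLS cells, and 0 to 1 for each of these in GMPs at 3 w.p.i. It gave 0 to 2 in KLS cells and 0 to 4 in GMPs of the Pu.1 line and 0 to 2 in GMPs at 24 w.p.i. Where 1 sample was left in a group, it was assumed to vary like the other groups.

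Same-numbered libraries did not deviate together (r = -0.01 in untimed KLS cells, -0.11 in untimed GMPs and 0.07 in KLS cells at 3 w.p.i.), so they share only a number. The crossed block in untimed GMPs, added after seeing the data, called 5 members. Blocking on the animal called 0 in MPP cells. In the other tables no paired analysis was possible because the columns carry no replicate numbers.

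Counts over all genes moved by more than 1.5 times with DESeq2 in KLS cells at 3 w.p.i. for Daxx-KO against WT (342 against 39), in GMPs at 3 w.p.i. (79 against 13, 263 against 40 and 280 against 8, with TMM 18 and edgeR 20 for the last), and at 24 w.p.i. (KLS cells 533 against 133, GMPs 1033 against 613). In Pu.1-KO KLS cells TMM gave 1745, edgeR 1919 and DESeq2 1034 against 190, and without a filter untimed KLS cells had 1751 against 3118. The share of higher calls moved from 71.8% to 58.8% (DESeq2) for Daxx-KO against WT in KLS cells, from 100% to 77.8% (TMM) and 77.1% (DESeq2) for DKO against Daxx-KO in GMPs, from 57.9% to 87.3% (edgeR) and 73.5% (DESeq2) in Pu.1-KO KLS cells, and from 38.3% to 26.3% (edgeR) and 54.2% (DESeq2) in KLS cells at 24 w.p.i.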

Other observations

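In KLS cells at 24 w.p.i. the 4 Daxx-deleted libraries, whose genotypes the column names do not give, fell into 2 pairs for several members. Libraries a and b had 6730 and 7210 normalized counts of Cd34 and libraries c and d 3804 and 3095, with 5038 and 5058 in WT. For Mecom libraries a and b had 12983 and 12156 and c and d 20831 and 20164. Hlf was at 15420 and 10869 in a and b and at 26324 and 30815 in c and d, and Fgd5 at 1198 and 665 against 2618 and 3097. No genotype was assigned from these values.

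The 7 LT-HSC libraries, which mix WT, Daxx +/F and Daxx F/F samples, ranged from 45.6 to 250.3 normalized counts for Procr, from 248 to 565 for Slamf1 and from 650.4 to 795 for Cd34, and Daxx itself ranged from 69.5 to 384. No Daxx comparison was made in them. Their Cd48, which the sort selected against, was at 20.3 to 180 normalized counts, against 451 to 1142 in MPP cells.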
